A study of Mus musculus with 8 samples.

Results

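ERVL elements are long terminal repeat (LTR) retrotransposons, the remains of retroviruses that entered the germ line and spread through the genome. A complete copy holds an internal sequence with the gag and pol genes between 2 terminal repeats that carry the promoter, and many copies have since been reduced to a lone terminal repeat. The youngest mouse member, MERVL, is named MERVL-int for its internal sequence and MT2_Mm for its terminal repeat. MERVL is transcribed when the embryonic genome first becomes active, in the 2-cell embryo, and again in a small and changing minority of cultured embryonic stem cells, called 2-cell-like cells.

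The ERVL elements were examined in total RNA of mouse embryonic stem cells. The members were taken by name: every row of the deposited table assigned to the ERVL family of the LTR class, without the related ERVL-MaLR family, with a mean normalised count of at least 10. Of 109 ERVL rows, 76 (69.7%) met the minimum, among 1097 transposable element subfamilies and 18694 features in all. A row stands for a subfamily and pools the reads of its genomic copies. The mean normalised count is the authors' mean of the size-factor-scaled read counts of all libraries.

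The cells came from a cross of Cast and 129S mice and carried an FKBP12 F36V degron tag on METTL3, the catalytic enzyme behind N6-methyladenosine (m6A) in RNA. The tag makes the protein degradable by the small molecule dTAG-13. Of the 8 libraries, 4 came from cells given dTAG-13 for 26 hours and 4 from untreated cells, and both groups were made up of 2 replicates each of the clones C3 and H5. All of them shared the tag and a TetOn promoter at the endogenous Xist gene, and none received doxycycline. The labels place the TetOn promoter on the 129S allele and the study's text on the Cast X chromosome, and the extraction text of the labels describes chromatin RNA where the methods describe whole-cell RNA. The cells grew on inactivated mouse fibroblasts, so feeder RNA could be present.

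One value per subfamily, pooled over treated and untreated cells, was analysed. Values of single libraries were not analysed here, and the fold changes and p-values of the authors' own comparison were not used. No difference between dTAG-13 and untreated cells is therefore given for any ERVL subfamily, no error between libraries can be attached to a value, and the values below describe how ERVL reads were distributed in these cells. A change in the number of 2-cell-like cells and a change in RNA per cell cannot be told apart in bulk RNA.

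MERVL-int was the most abundant ERVL subfamily, with a mean normalised count of 6961. It held 24.0% of the ERVL reads and ranked 41st among all transposable element subfamilies. MT2_Mm, the terminal repeat that serves as its promoter, had a mean normalised count of 2179, the 4th highest among ERVL subfamilies and the 92nd among all transposable elements. MERVL-int and MT2_Mm together held 31.6% of the ERVL reads and 0.532% of the reads of all transposable elements. A subfamily's count depends on the number and the length of its copies as well as on their transcription. Copy numbers and lengths were not analysed here, so these values are totals of reads and not levels per copy or per length. Transcripts of genes that run across a copy may also add reads to its subfamily. Whether the reads came from such transcripts or from the promoters of the elements was not tested.

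The relatives of MERVL were also abundant. MERVL_2A-int, a second internal sequence, had a mean normalised count of 2233, and the count of MERVL-int was 3.12 times as high. The terminal repeat MT2B, with 2140, lay close to MT2_Mm, which had 1.02 times its count. MT2B1 followed with 1355, MT2B2 with 970, MT2A with 844 and MT2C_Mm with 366. MT2_Mm thus held 27.8% of the reads of the 6 MT2 terminal repeats, and the other 5 summed to 5674. Only reads with a single place in the genome were kept, so subfamilies with near-identical copies may be undercounted, which was not tested.

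**Figure D1:**
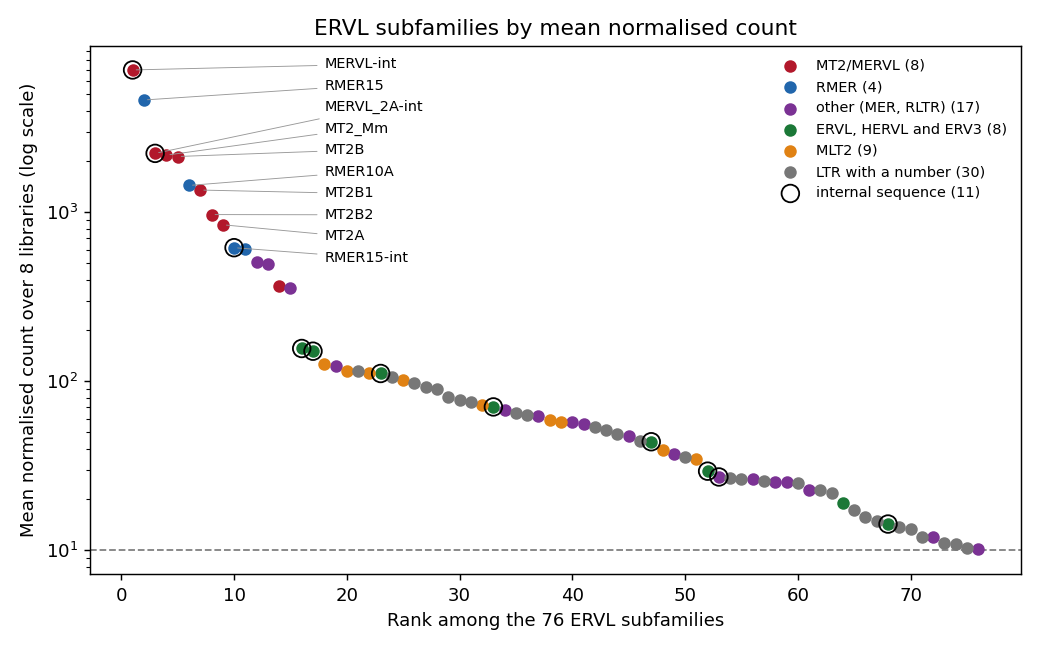
Mean normalised count over 8 libraries (vertical axis, log scale) of the 76 ERVL subfamilies in order of rank (horizontal axis), coloured by name group, with black rings around the 11 internal sequences and a dashed line at the minimum of 10. MERVL-int stands first at 6961, and 7 subfamilies lie above 1000.

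The reads were concentrated in few subfamilies. The 7 subfamilies with a mean normalised count of at least 1000 held 72.3% of the ERVL reads, the 18 between 100 and 1000 held 20.6%, and the 51 between 10 and 100 held 7.11%. The 4 most abundant subfamilies held 55.2% of the reads, and the 18 most abundant 90.2%. From the highest to the lowest member the count fell 689-fold, and the median member had a mean normalised count of 58.2, against 118 for the 896 transposable element subfamilies at the same minimum. In the plot of counts by rank, the members from RLTR28, with 356, upward are set off from ERVL-B4-int, with 156, and the rest.

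By name, the ERVL subfamilies fell into 6 groups. The 8 MT2 and MERVL subfamilies held 58.8% of the ERVL reads, with a median count of 1747 and none below 366. The 4 RMER subfamilies, rodent terminal repeats and 1 internal sequence, held 25.1%. RMER15 had the second highest count of all members, 4621, and was followed within its group by RMER10A with 1442, RMER15-int with 618 and RMER10B with 603. MERVL-int was 1.51 times as abundant as RMER15 in reads.

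The remaining 4 groups, named mostly for repeats that are old and shared with other mammals, were numerous but held few reads. The 17 MER and RLTR subfamilies held 6.77% of the ERVL reads, led by MER21C with 509 and MER21B with 497. The 30 subfamilies named LTR with a number held 4.71%, and their counts ran from 10.3 for LTR89 to 114 for LTR16A. Of these, 10 were LTR16 subfamilies, with a summed mean normalised count of 382. The 9 MLT2 subfamilies held 2.48%, between 34.8 for MLT2C2 and 126 for MLT2B4. The 8 subfamilies named ERVL, HERVL, HERV16 or ERV3 held 2.06%, led by ERVL-B4-int with 156 and HERVL74-int with 151.

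**Figure D2:**
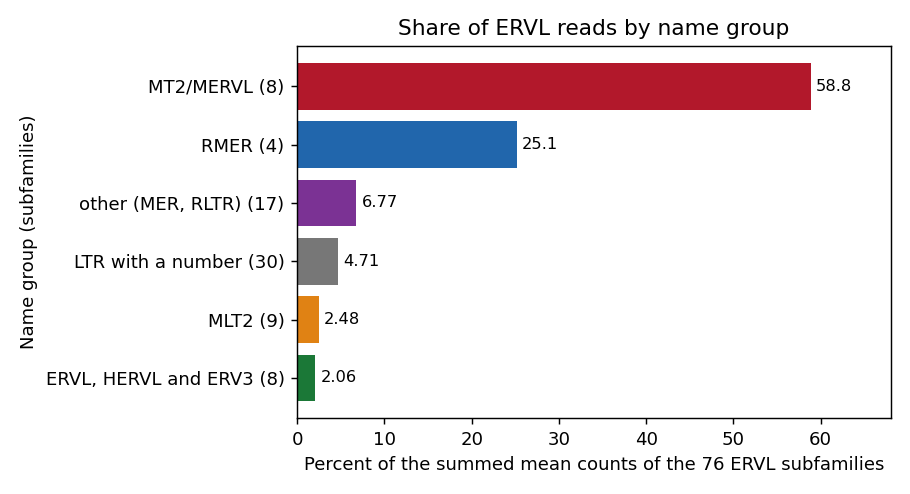
Percent of the summed mean normalised counts of the 76 ERVL subfamilies (horizontal axis) in each of 6 name groups (vertical axis, with the number of subfamilies). The MT2/MERVL group reaches 58.8% and the RMER group 25.1%, and each of the other bars stays below 7%.

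Internal sequences carry the coding genes of the element, and 11 of the 76 members were of this kind. They held 36.0% of the ERVL reads, and the 65 terminal repeats held 64.0%. MERVL-int and MERVL_2A-int had a summed mean normalised count of 9194, while the other 9 internal sequences summed to 1221. Below RMER15-int, ERVL-B4-int and HERVL74-int, these were ERVL-E-int with 111, ERVL-int with 70.5, ERV3-16A3_I-int with 43.9, HERVL40-int with 29.4, MER68-int with 27.1 and HERV16-int with 14.3.

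The balance of internal and terminal reads differed between elements. MERVL-int had 3.19 times the count of MT2_Mm, and ERV3-16A3_I-int 2.29 times that of its own terminal repeat, ERV3-16A3_LTR, which had 19.1. For RMER15 the order was the other way round: the terminal repeat had 7.48 times the count of RMER15-int. MER68, with 122, had 4.51 times the count of MER68-int. These ratios compare reads of sequences of unequal length and copy number. Keeping only reads with a single place in the genome may also lower 1 part of an element more than the other, which was not tested. Each ratio comes from 1 pooled value per subfamily, so whether the ratios differ beyond the spread between libraries was not tested.

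At the lower end, the minimum fell in a continuous run of values. MER70A (10.1), LTR89 (10.3) and LTR16A2 (10.8) were the lowest members, and LTR84a (9.84), MER88 (9.583) and LTR82B (9.581) were the highest rows left out. The 33 rows left out had a summed mean normalised count of 176, 0.605% of the sum of all ERVL rows. Among them were the internal sequences MER21-int with 5.52, MER70-int with 1.92 and LTR52-int with 0.27.

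The ERVL family was a small part of the LTR elements in these cells. Its 76 members held 7.19% of the reads of LTR elements, 1.68% of those of all transposable elements and 0.178% of those of all features. The members of the ERVL-MaLR family held 21.9% of the LTR reads, those of ERV1 18.2% and those of ERVK 52.5%, with the same minimum count. The minimum kept 69.7% of the ERVL rows, 87.1% of ERVL-MaLR, 66.9% of ERV1 and 91.7% of ERVK. At this minimum the median subfamily count was 58.2 in ERVL, 360 in ERVL-MaLR, 92.7 in ERV1 and 130 in ERVK. The order of the families depended on the minimum: without one, the medians were 26.5, 175, 34.0 and 112, with ERVL again the lowest, but at a minimum of 100 they were 497, 758, 262 and 275, with ERVL above ERV1 and ERVK. Both of these settings were added for the other families after the data were seen. A single subfamily held 24.0% of the reads in ERVL (MERVL-int), 11.4% in ERVL-MaLR (MTA_Mm-int), 58.4% in ERV1 (RLTR1B-int) and 33.5% in ERVK (MMETn-int). The share of reads in internal sequences was 36.0% in ERVL, 31.8% in ERVL-MaLR, 73.3% in ERV1 and 66.4% in ERVK. These shares are descriptions of 1 pooled profile, and no difference between families was tested.

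**Figure D3:**
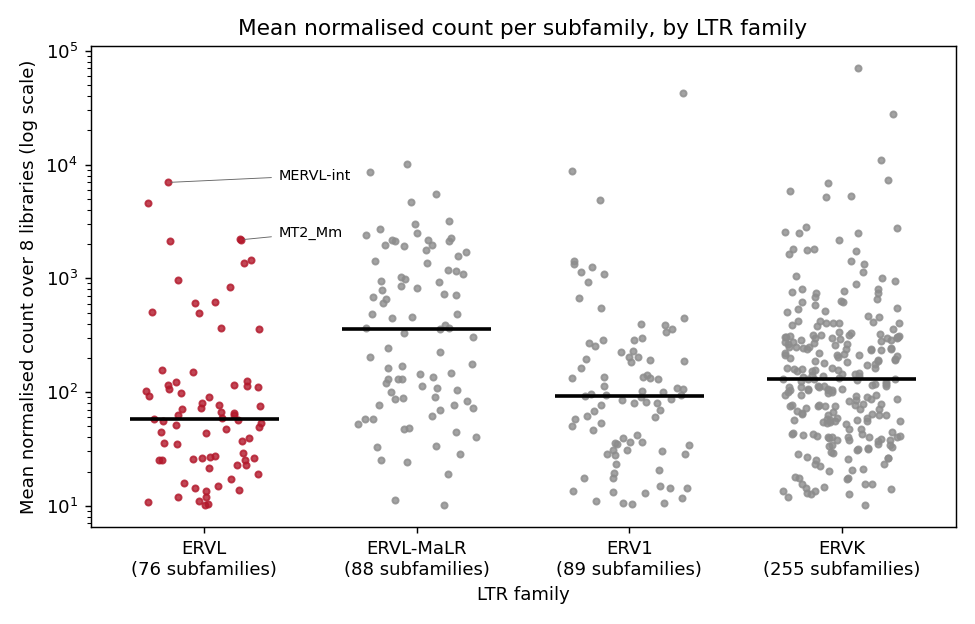
Mean normalised count over 8 libraries (vertical axis, log scale) of each subfamily with a count of at least 10 in 4 LTR families (horizontal axis), with a black line at each median. The ERVL median, 58.2, is the lowest of the 4 at this minimum but not at a minimum of 100, where ERVL (497) lies above ERV1 (262) and ERVK (275), while MERVL-int, at 6961, lies within the range of the highest subfamilies of ERVL-MaLR, which end at 10059.

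Genes that mark the 2-cell-like state accompany MERVL in that state, and their levels were read from the same column. Of 20 symbols looked up, 18 were listed and 6 had a mean normalised count of at least 10. The share of all genes that met this minimum was not analysed. The median mean normalised count of those listed was 8.28, against 170 for all 17597 genes. Genes can be compared per length, and the levels below are mean normalised counts per kb of exon in the GENCODE vM21 annotation. Zscan4f, of a family that acts in telomere maintenance, had the highest level of the list, 28.2 per kb. Zscan4d, Zscan4c, Zscan4a and Zscan4b followed with 11.5, 10.8, 9.61 and 7.80 per kb, and Zscan4e had 5.11. Zfp352, a retrogene expressed in the 2-cell embryo, had 4.66 per kb, and Tcstv1 and Tcstv3 had 2.43 and 3.96. The median of the 17 genes with a length was 5.11 per kb. Dux, whose protein activates MERVL through its terminal repeat, had a mean normalised count of 4.63 and no length under that symbol. The Zscan4, Usp17l, Tdpoz and Dux genes belong to families of closely related copies, so their counts are uncertain too.

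Genes known to act on MERVL were present at higher levels. The 12 activators and repressors looked up had a median of 667 per kb, from 215 for Chaf1a, a subunit of the chromatin assembly factor, to 4534 for Trim28, the corepressor recruited by zinc finger proteins. Dppa2 and Dppa4, which act upstream of Dux, had 756 and 1583 per kb. The histone demethylase Kdm1a had 772, the histone methyltransferases Setdb1 and Ehmt2 had 389 and 676, and Rif1 had 2028 per kb.

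The cells were checked against the markers of their label. All 8 embryonic stem cell markers were present, with a median of 3038 per kb, and Pou5f1, Nanog and Sox2 had 5309, 2646 and 1674 per kb. Of the 9 fibroblast feeder markers, 5 had a mean normalised count of at least 10. The median count of the list was 13.8, against 170 for all genes. Per kb, the list had a median of 1.28 and a range from 0.088 for Postn to 806 for Sparc. The collagen genes Col1a1, Col1a2 and Col3a1 had 3.02, 1.11 and 0.85 per kb, while Fn1 had 423 per kb. A part of the feeder cells in the ERVL reads was not tested.

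**Figure D4:**
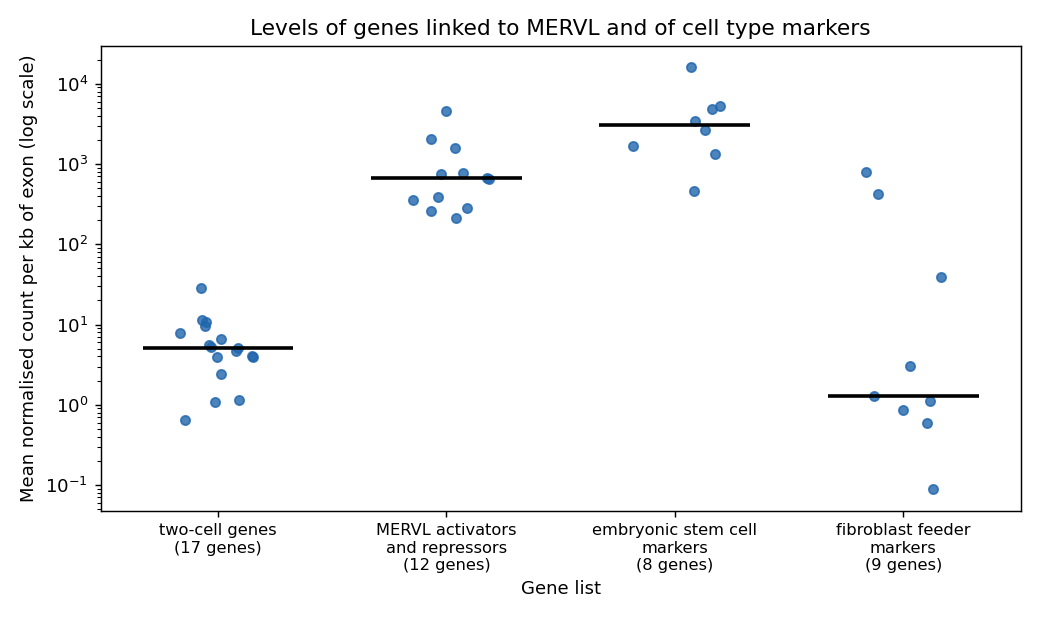
Mean normalised count per kb of exon (vertical axis, log scale) of each gene in 4 gene lists (horizontal axis, with the number of genes that have a length), with a black line at each median. The 17 2-cell genes lie between 0.64 and 28.2 per kb, below all 12 activators and repressors, which start at 215. Dux, an activator of MERVL listed with the 2-cell genes, has no length under that symbol and is not plotted.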

How the data were processed

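The study sequenced rRNA-depleted total RNA as read pairs. Its authors removed rRNA reads with bowtie2, aligned the rest to the N-masked mm10 genome with STAR, kept unique alignments, removed duplicates with Picard, and counted genes and transposable element subfamilies with the default settings of TEtranscripts. Whether strand was used in counting is unclear. Copies that mm10 lacks are not counted. The deposited signal used here is the authors' mean over 8 libraries of counts divided by size factors. Its sum over all features, 16292717, is a total of scaled means over the listed features after the reads above were removed, and library depths were not analysed here. The other 5 value columns hold the fold changes, standard errors, statistics, p-values and adjusted p-values of the authors' comparison of dTAG-13 and untreated cells. They were not used, so no test was made.

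ERVL rows were selected by name and a minimum mean count of 10. Shares are percentages of summed mean counts. Name groups follow the start of each name, and internal sequences end in -int. Exon lengths are the union of the exons of a gene in GENCODE vM21 (GRCm38, the build of mm10), which may differ from the annotation the authors counted with. Selection, grouping and shares were tested on a made-up table. Python 3.11.15, pandas 2.3.3, scipy 1.17.1 and matplotlib 3.10.9 were used.

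Named subfamilies are MERVL-int and MT2_Mm, the 10 most abundant members, every internal sequence and MT2 or MERVL member, the leading member of each name group and the 3 rows on either side of the minimum. RMER10B, RLTR28, MER21B, LTR89, MLT2C2 and the terminal partners of internal sequences were named after their values were seen, as were the leading subfamilies of other families. The members and gene lists were chosen with earlier results of these data known.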

Additional observations from a re-analysis of the deposited data

How the results depend on the processing

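The number and the median count of the members rest on the minimum count, and the ERVL and internal shares more on MERVL-int. A minimum of 100 left 25 ERVL subfamilies, with a median count of 497, while no minimum gave 109 with a median of 26.5 and a minimum of 1 gave 107 with a median of 26.7. At a minimum of 100, the ERVL family held 1.56% of the reads of transposable elements and 6.68% of those of LTR elements, MERVL-int and MT2_Mm held 34.0% of the ERVL reads, and internal sequences 38.0%. Leaving out MERVL-int lowered the ERVL share to 1.29% of transposable elements and 5.56% of LTR elements, and the internal share to 15.7%. The wider set of every name that starts with MT2 or MERVL held 58.8% of the ERVL reads, against 31.6% for MERVL-int and MT2_Mm alone. Of 18 alternatives, 6 stayed near the main value by the rules below. This tally is no measure of robustness, because several outcomes were fixed in advance. Leaving out MERVL-int, with 24.0% of the ERVL reads, could only lower a share, and the wider set of names could only raise one. Dropping the minimum could hardly move a share, as the rows left out held 0.605% of the reads of all ERVL rows. Shares were judged by the 95% Wilson interval of the rounded mean counts, which leaves out the spread between libraries. It treats a mean over 8 libraries as the reads of 1 library, so it is wider than the counting error of all reads. The number of alternatives that stayed near may depend on that choice. The number of subfamilies was judged by a factor of 1.5. The median, which has no such interval, was counted as moved under each of its 3 alternatives. No paired analysis was possible because the value used is 1 mean over all libraries. For the same reason no replicate could be left out, and subfamilies with few reads carry an error between libraries that is unknown here.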
